A study of Mus musculus with 3 samples.

Results

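The genes described here encode ligands of the epidermal growth factor (EGF) family, insulin-like growth factor 1 (*Igf1*) with its receptor (*Igf1r*), and progranulin (*Grn*), read in macrophages of the 4T1 model. They were chosen by name, and every probe set that the platform annotation assigns to 1 of these symbols alone was used. Of 10 genes, 9 were found, with 22 of the 45037 probe sets and 9 of the 18193 named genes. They were *Ereg*, *Hbegf*, *Btc*, *Egf*, *Tgfa*, *Nrg1*, *Igf1*, *Igf1r* and *Grn*. No probe set used here was named for *Areg*, so its expression was not analysed here.

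In this model, 4T1 mammary carcinoma cells are grown in the mammary fat pad of BALB/c mice of the same strain and spread to the lung. The mice were 5 to 6 weeks old at inoculation. RNA of 3 groups was read, each on a single expression array. BMDM were bone marrow-derived macrophages of healthy mice, whose strain, age and culture for this array were not found in the sources. pTAMs were tumor-associated macrophages of the primary tumor and mTAMs those of the metastatic lung, both taken from mice that had carried 4T1 tumors for 5 weeks. TAMs were obtained by enzymatic digestion of the tissue and sorting, in the study mainly as CD11b+ F4/80+ cells, and the gate used for these arrays was not found in the sources. No array of macrophages from a healthy lung or mammary gland was used here, so the difference between bone marrow-derived and tissue macrophages cannot be told apart from that between healthy and tumor-bearing mice. Without replicates, the spread across animals is unknown and no test between groups was possible. How many mice gave RNA to each array was not found either.

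EGF-family ligands are made as membrane-bound precursors, are released by proteases of the ADAM family and bind receptors of the ErbB family, which carry signals for growth, migration and repair. Macrophages are a known source of such ligands in mammary tumors, where carcinoma cells carry the receptors. IGF1 is a growth and survival factor made by macrophages as well as by liver and stroma, and acts through a receptor tyrosine kinase. Its access to the receptor is set by IGF-binding proteins. Progranulin is a secreted and lysosomal protein that macrophages make abundantly, and neutrophil proteases cut it into granulin peptides.

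The sequences just upstream of *Igf1* and *Igf1r* are shown because these genes, for a ligand and its receptor, differed from BMDM in opposite directions on both TAM arrays. They were taken from RefSeq promoter windows of the build GRCm38.p6. After a filter by chromosome, the windows used covered 7 of the 10 genes. The sequences comprise the 250 bases before the annotated start. That of *Igf1* is chr10:87860861-87861110 and that of *Igf1r* is chr7:67952007-67952256, both on the plus strand and printed 5′ to 3′. Capitals mark matches, on either strand, to the AP-1 motif TGANTCA, the E-box CACGTG, the GC box GGGCGG, the CCAAT box CCAAT and the TATA box TATAAA, none of which overlapped.
Igf1: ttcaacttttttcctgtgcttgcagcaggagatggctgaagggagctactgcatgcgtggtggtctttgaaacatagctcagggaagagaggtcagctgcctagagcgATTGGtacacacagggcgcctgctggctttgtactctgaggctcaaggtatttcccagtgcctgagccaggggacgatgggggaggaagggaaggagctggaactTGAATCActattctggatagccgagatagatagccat
Igf1r: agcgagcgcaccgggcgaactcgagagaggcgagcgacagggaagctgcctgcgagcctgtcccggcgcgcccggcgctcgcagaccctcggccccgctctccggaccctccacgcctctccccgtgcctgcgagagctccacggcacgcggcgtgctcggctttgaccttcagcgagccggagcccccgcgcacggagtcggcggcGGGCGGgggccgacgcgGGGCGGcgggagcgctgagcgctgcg
The window of *Igf1r* had a GC content of 77.6% and 42 CG dinucleotides, against 52.8% and 5 in that of *Igf1* and medians of 52.4% and 6 over 32851 windows. It held 2 GC boxes, a motif found in 32.7% of all windows. The window of *Igf1* held 1 AP-1 match, found in 6.75% of windows, and 1 CCAAT box on the minus strand, found in 33.8%. Neither window held an E-box (6.02% of windows) or a TATA box (12.4%). These matches describe letters and not sites of binding, and the arrays do not show which start of a gene was used.

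Values are on the log2 scale of robust multi-array averaging (RMA). They are compared between arrays for 1 probe set at a time, since the level of one probe set cannot be set against that of another. A value of 5.3 or less, the range of odorant, taste and similar receptor genes, counted as background, and a fold against such a value is a lower bound. The probe set with the highest mean stood for its gene, which was called higher or lower where the values as deposited differed at least 2-fold, even if one of them was background. The bound of a called gene can therefore be below 2-fold. The only measure of technical error was the spread between probe sets of one gene above the floor, whose SD was 0.35 when pTAMs and 0.44 when mTAMs were set against BMDM, and 0.26 between the TAM arrays. Macrophage markers were above the floor on all arrays (8 of 8), and their summed linear signal was 55878, 48244 and 45435 for BMDM, pTAMs and mTAMs. In such bulk samples, fewer cells of a type and less RNA per cell cannot be told apart.

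Of the 9 genes, 6 were above the floor on at least 1 array. In pTAMs, *Hbegf* and *Igf1r* were higher than in BMDM and *Igf1* was lower, so that 2 of 5 compared genes were higher and 1 was lower, where 8.78% of all 11859 genes compared were higher and 7.5% lower. In mTAMs, *Ereg*, *Hbegf* and *Igf1r* were higher than in BMDM and *Igf1* was lower, that is 3 of 6 higher and 1 lower, against 11.5% and 14.4% of 11945 genes. The balance over all genes depended on the scaling in both comparisons with BMDM. In pTAMs, 1041 genes were higher and 890 lower as deposited, 966 and 1019 after median centring, and 1085 and 795 after cyclic loess normalization. In mTAMs, as deposited, 1368 genes were higher and 1715 lower (44.4% of called genes higher, median difference -0.11), and after cyclic loess normalization 55.2% were higher, with a median of 0.00. The same members were called after cyclic loess normalization. Between the TAM arrays, *Ereg* and *Igf1* were higher in mTAMs and *Hbegf* was lower (2 and 1 of 6), against 5.36% and 2.58% of 11801 genes. As the genes were selected by name with earlier results known, and are few, these shares describe these arrays alone. Both comparisons with BMDM rest on the same BMDM array. At a 3-fold threshold, *Hbegf* and *Igf1r* stayed higher and *Igf1* lower in pTAMs (5.37% and 3.19% of all genes), *Ereg* and *Igf1r* higher and *Igf1* lower in mTAMs (7.22% and 4.81%). Between the TAM arrays it left *Ereg* higher and none lower (2.49% and 0.491%).

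**Figure D1:**
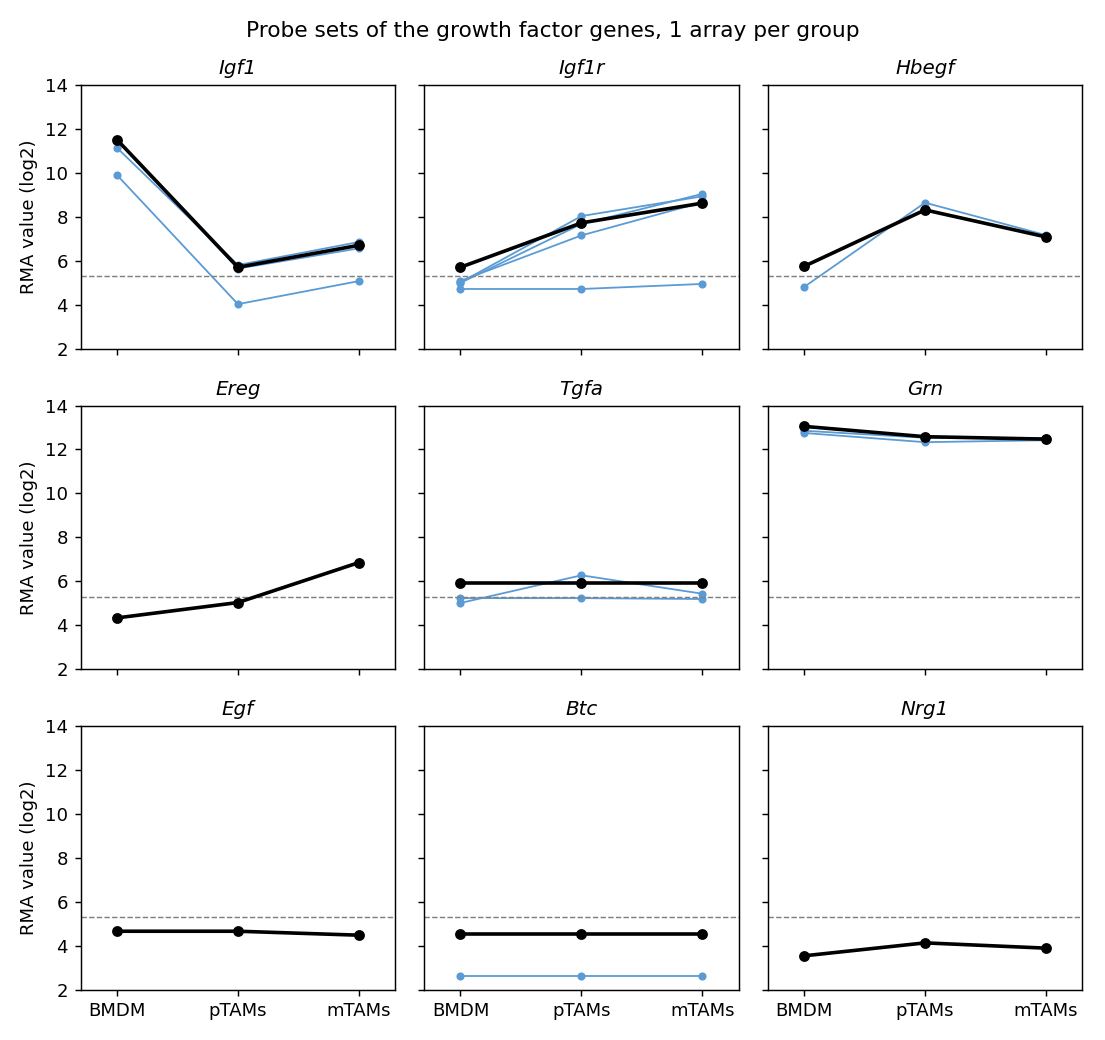
RMA values (vertical axis, log2) of every probe set of 9 genes on the BMDM, pTAM and mTAM arrays (horizontal axis), 1 point per array, with lines joining the values of 1 probe set. The black line is the probe set read for the gene, the blue lines are other probe sets and the dashed line is the floor of 5.3. *Igf1* lies at 11.51 in BMDM and near the floor in pTAMs, and *Igf1r* is lowest in BMDM by the probe set read. *Hbegf* peaks in pTAMs and *Grn* stays between 12.33 and 13.05.

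*Hbegf*, which encodes heparin-binding EGF-like growth factor, was higher in both TAM groups than in BMDM, and more so in pTAMs. It was 5.74 in BMDM, 8.31 in pTAMs and 7.08 in mTAMs. Thus the pTAM array was highest and the BMDM array was close to the floor. The differences corresponded to 5.94-fold in pTAMs over BMDM, 2.53-fold in mTAMs over BMDM and 2.35-fold lower in mTAMs than in pTAMs, which placed *Hbegf* at rank 337 of 11859 genes from the highest in the first and at rank 158 of 11801 from the lowest in the last. The second probe set gave the same order with larger gaps (4.80, 8.64 and 7.16). From it, the ratio to BMDM was at least 10.1-fold in pTAMs and at least 3.63-fold in mTAMs, and mTAMs were 2.79-fold below pTAMs. The log2 difference between the TAM arrays was -1.23 from one probe set and -1.48 from the other. Both exceeded the SD of 0.26 between probe sets, which includes no spread between arrays or animals.

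*Ereg*, which encodes epiregulin, was above the floor in mTAMs alone. Its values were 4.33 in BMDM, 5.03 in pTAMs and 6.85 in mTAMs. The mTAM value was at least 2.93-fold above each of the others, and the order of BMDM and pTAMs, both below the floor, could not be read. *Ereg* was read from 1 probe set, so no other value bears on it. *Epgn*, the gene of epigen, was 4.92, 5.30 and 5.46 on the same arrays, and its mTAM value lay just above the floor. *Epgn*, *Ereg*, *Areg* and *Btc* lie next to each other in this order on mouse chromosome 5 according to RefSeq, and *Btc*, the gene of betacellulin at the other end of the group, was below the floor on all 3 arrays.

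*Tgfa*, which encodes transforming growth factor α, gave a different answer with each probe set. The one read for the gene was 5.94 on all 3 arrays to 2 decimals, as was found for 21.4% of all probe sets, most of them at background. The second was 5.01 in BMDM, 6.27 in pTAMs and 5.43 in mTAMs. By this probe set *Tgfa* was highest in pTAMs, at least 1.96-fold above BMDM and 1.79-fold above mTAMs, in the order seen for *Hbegf*. Its log2 difference of 1.26 between pTAMs and BMDM would have been called, but rests on a BMDM value below the floor. The third lay below the floor throughout, between 5.19 and 5.23.

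The other ligands were at background. Both probe sets of *Btc* had identical values on all arrays (4.52 and 2.63). *Egf*, the founding member of the family, was 4.66 in BMDM, 4.66 in pTAMs and 4.48 in mTAMs, and *Nrg1*, the gene of neuregulin 1, was 3.54, 4.13 and 3.89. For these 3 genes no difference could be read. Over the 11 genes of the EGF family, of which 10 were measured, 1 of 2 compared genes was higher in pTAMs and 2 of 4 in mTAMs than in BMDM, and none was lower. Of all genes, 8.78% were higher and 7.5% lower in pTAMs, and 11.5% and 14.4% in mTAMs.

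**Figure D2:**
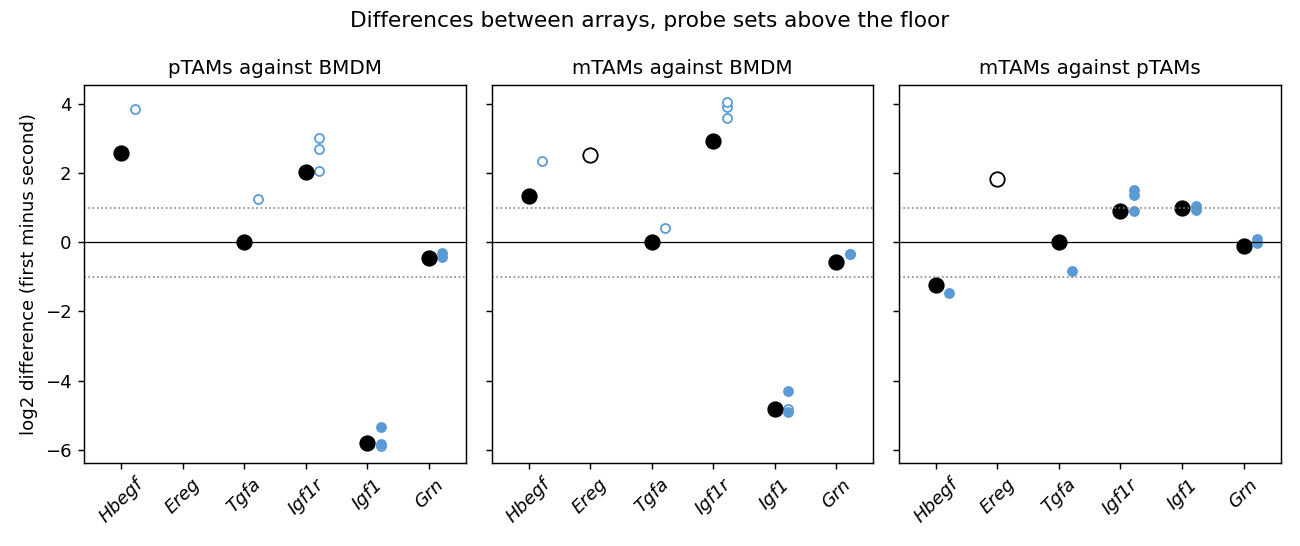
Log2 differences (vertical axis) of 6 genes (horizontal axis) in the 3 comparisons, 1 point per probe set where either compared array exceeds the floor. Large black points are the probe set read for the gene, small blue points the others, open points have one value at or below the floor, and dotted lines mark 2-fold. *Igf1r* and *Igf1* lie on opposite sides in both comparisons with BMDM (2.02 and -5.81 in pTAMs), and *Hbegf* is above 0 against BMDM and at -1.23 in mTAMs against pTAMs.

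The ErbB receptors, to which the EGF-family ligands bind, did not differ by 2-fold between pTAMs and BMDM in any of 3 compared genes. Of all genes, 8.78% were higher and 7.5% lower in pTAMs, and 11.5% and 14.4% in mTAMs. *Egfr* was 6.42 in BMDM, 6.56 in pTAMs and 6.70 in mTAMs, and *Erbb2* lay between 5.75 and 5.82. The other probe sets of *Egfr* were 6.13 on all arrays, between 5.46 and 5.58, or at background. *Erbb3* was 7.20 in BMDM and 6.11 in mTAMs, which is 2.13-fold lower in mTAMs than in BMDM, although its second probe set was at background. *Erbb4* had a value of 3.03 on all arrays.

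Among genes of ligand release, the sheddases *Adam17* (10.79 in BMDM, 10.16 in pTAMs, 10.30 in mTAMs) and *Adam10* (11.21, 11.52, 11.21) were within 2-fold on all arrays. *Rhbdf2*, which encodes the iRhom2 protein needed for ADAM17 to mature in myeloid cells, was 7.97, 9.08 and 8.72, or 2.16-fold higher in pTAMs than in BMDM. *Adam19*, another membrane protease, had the largest difference of this group. It was 6.14 in BMDM, 7.51 in pTAMs and 11.36 in mTAMs, so mTAMs were 37.3-fold above BMDM and 14.4-fold above pTAMs. Its second probe set was 4.47, 5.44 and 8.83, with the BMDM value below the floor and a log2 difference of 3.39 between the TAM arrays. In all, 2 of 6 compared release genes were higher in pTAMs and 1 in mTAMs than in BMDM, against 8.78% and 11.5% of all genes. Their medians were 0.61 and 0.28, against -0.05 and -0.11 over all genes.

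Inhibitors that act on growth factor receptors or their signals went in both directions. *Errfi1*, whose product MIG6 binds and inhibits ErbB kinases, was 7.38 in BMDM, 10.30 in pTAMs and 9.66 in mTAMs (7.57-fold and 4.86-fold higher than in BMDM), and its second probe set gave 2.53 and 2.05 in place of 2.92 and 2.28. *Spry1*, a Sprouty gene, was 2.95-fold and 2.14-fold higher, *Lrig1*, whose product promotes ErbB degradation, was 2.81-fold higher in pTAMs, and *Lrig2* was 2.22-fold higher in mTAMs. One of the other 2 probe sets of *Lrig1* gave -0.09 in pTAMs, and the second of *Lrig2* gave -0.28 in mTAMs, from values near the floor. The genes of the Ras-pathway inhibitors *Spred1* (3.43-fold) and *Spred2* (2.75-fold) and of the ubiquitin ligase *Cblb* (2.35-fold) were lower in mTAMs than in BMDM. Other probe sets above the floor differed for *Spred2* (-0.04, -0.11 and 0.00 on the log2 scale) and *Cblb* (-0.64 and 0.19), so these calls rest on the probe set read. *Spred1* and *Spred2* were also 2.27-fold and 2.35-fold lower in mTAMs than in pTAMs. Thus 3 of 9 were higher and none lower in pTAMs (8.78% and 7.5% of all genes), and 3 were higher and 3 lower in mTAMs (11.5% and 14.4%).

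**Figure D3:**
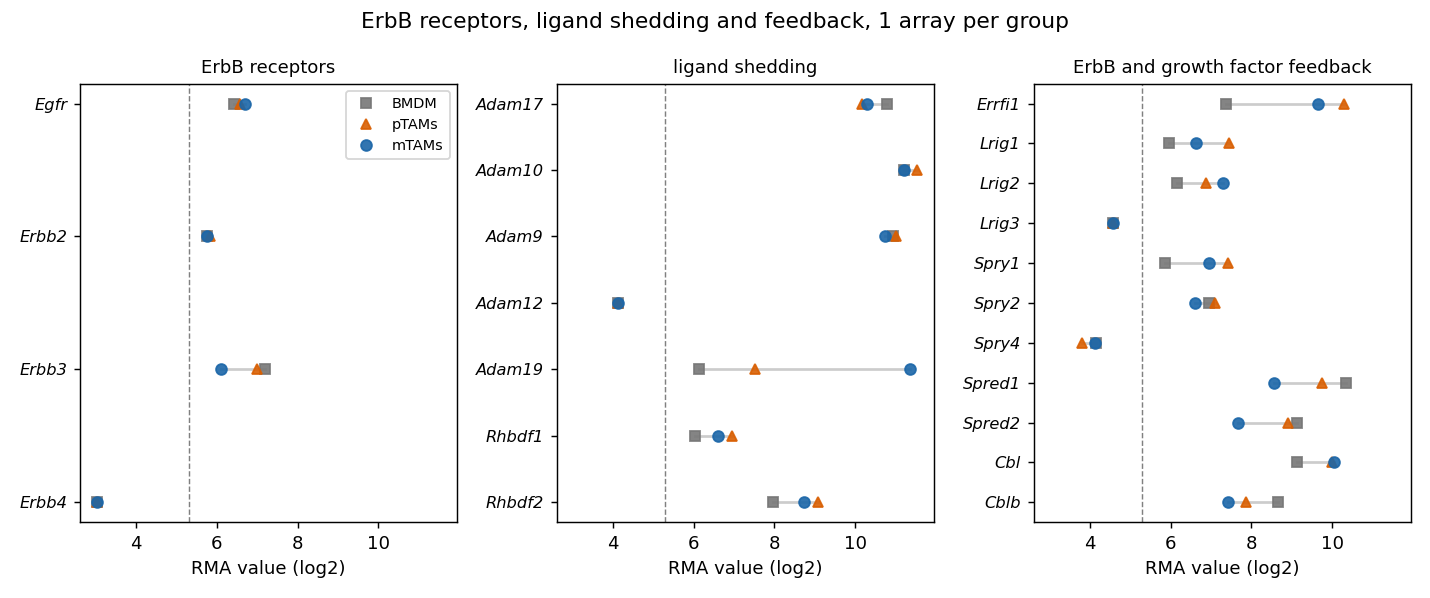
RMA values (horizontal axis, log2) of ErbB receptors, ligand release genes and inhibitors on the BMDM (grey squares), pTAM (orange triangles) and mTAM (blue circles) arrays, 1 array per group, with the floor of 5.3 dashed and a grey bar over the range of the 3 values of a gene. *Adam19* spans 6.14 to 11.36 and *Errfi1* 7.38 to 10.30, whereas *Egfr* spans 6.42 to 6.70. Levels of different genes cannot be compared.

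*Igf1* was far lower in both TAM groups than in BMDM. The probe set read for the gene was 11.51 in BMDM, 5.70 in pTAMs and 6.70 in mTAMs. It stood well above the floor in BMDM, and the TAM arrays were only slightly above it. It was 56.1-fold lower in pTAMs, the rank 4 of 11859 genes from the lowest, and 28.1-fold lower in mTAMs, the rank 3 of 11945. Of the other 3 probe sets, those above the floor on all arrays gave log2 differences of -5.83 and -5.34 in pTAMs and of -4.91 and -4.29 in mTAMs. The last lay below the floor in both TAM groups (9.90, 4.02 and 5.07), where the fold is at least 24.3. Between the TAM arrays, mTAMs were higher by exactly 2-fold, at the threshold of a call, and the other probe sets above the floor gave 1.05 and 0.92 on the log2 scale. Probe sets of a gene share the RNA of an array and are not replicates.

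*Igf1r* differed from BMDM in the opposite direction, although, like *Igf1*, it had its higher TAM value in mTAMs. It was 5.70 in BMDM, 7.72 in pTAMs and 8.62 in mTAMs, with the BMDM array just above the floor and the mTAM array highest. The ratios to BMDM were 4.06-fold in pTAMs and 7.57-fold in mTAMs. Of its 5 probe sets, 3 others lay below the floor in BMDM (4.99 to 5.08) and gave at least 3.61-fold to at least 6.63-fold in pTAMs and at least 10.3-fold to at least 13.4-fold in mTAMs. The fifth was at background on all arrays (4.71, 4.71 and 4.94). Between mTAMs and pTAMs the probe set read for the gene gave 1.87-fold, under the threshold, whereas the other 3 gave log2 differences of 0.90, 1.37 and 1.51. The size of this last difference therefore depended on the probe set, by more than the SD of 0.26, while mTAMs were higher in each of the 4.

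Other genes of the IGF axis differed as well. Of 18 genes on the array, *Igf1* and *Igf1r* included, 12 were compared between pTAMs and BMDM, of which 6 were higher and 2 lower (median 0.79), and 11 between mTAMs and BMDM, of which 6 were higher and 2 lower (median 1.32). Over all genes, 8.78% were higher and 7.5% lower in pTAMs, and 11.5% and 14.4% in mTAMs, with medians of -0.05 and -0.11. The lower genes of the IGF axis were *Igf1* and *Igf2r* (10.33 in BMDM, 9.08 in pTAMs, 9.02 in mTAMs). *Igf2r* encodes the receptor that takes IGF2 and lysosomal enzymes into the cell. *Igfbp6*, for a binding protein with preference for IGF2, was 4.52 in BMDM, 8.83 in pTAMs and 11.01 in mTAMs, at least 11.5-fold and at least 52.3-fold above BMDM, and mTAMs exceeded pTAMs 4.53-fold. *Igfbp7* was 4.51, 8.40 and 8.19 by one probe set, but its other 2 probe sets differed by at most 0.23. *Igfbp5* was 6.90 on all arrays by the probe set read, but its second was 4.63, 7.16 and 6.87, with BMDM below the floor. *Htra1*, a secreted protease that cuts IGF-binding proteins, was 4.99-fold and 3.92-fold higher than in BMDM, and its second probe set was 4.33, 9.46 and 8.94, with the BMDM value below the floor. *Insr*, the insulin receptor gene, was 7.17 in BMDM, 7.40 in pTAMs and 8.49 in mTAMs, and thus 2.50-fold above BMDM and 2.13-fold above pTAMs in mTAMs. Its other probe sets were below the floor on all arrays (4.13, 4.13 and 4.54, and 5.07, 5.07 and 5.10). *Igf2* lay between 5.44 and 5.61, close to the floor.

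*Grn* was within 2-fold on all arrays. It was 13.05 in BMDM, 12.58 in pTAMs and 12.47 in mTAMs, or 1.39-fold and 1.49-fold lower in the TAM groups. The other 2 probe sets gave log2 differences from -0.42 to -0.32 in pTAMs and of -0.34 and -0.33 in mTAMs. All 3 were thus a little lower in both TAM groups, by differences of the order of the SD between probe sets, and they split in sign between the TAM arrays (-0.11, 0.09 and -0.02).

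Among genes whose products handle progranulin, *Slpi*, *Prtn3* and *Mmp14* were higher in both TAM groups than in BMDM. *Slpi*, for a protease inhibitor that shields progranulin, was 8.10 in BMDM, 11.60 in pTAMs and 12.42 in mTAMs (11.3-fold and 20.0-fold higher). *Prtn3*, for the neutrophil proteinase 3 that cuts it, was 4.74, 9.48 and 9.64, at least 18.1-fold and at least 20.3-fold higher, whereas *Elane*, for neutrophil elastase, stayed between 5.42 and 5.89. *Mmp14*, a membrane matrix protease gene, was 18.9-fold higher in pTAMs and 8.82-fold in mTAMs than in BMDM, and *Mmp12*, the macrophage elastase gene, was 10.69 in BMDM, 11.91 in pTAMs and 9.55 in mTAMs. *Sort1*, for the receptor sortilin that takes up progranulin, was 8.65, 7.81 and 9.99, so that mTAMs exceeded pTAMs 4.53-fold, and its other probe sets gave 1.69 and 1.47 in place of 2.18. *Psap*, for the lysosomal partner prosaposin, and *Tmem106b*, for a lysosomal membrane protein, were within 2-fold throughout. *Tnfrsf1b*, a TNF receptor gene, was 2.58-fold and 3.94-fold higher than in BMDM, but its second probe set gave log2 differences of 0.17 and 0.97. With *Grn* included, 5 of 12 were higher in pTAMs than in BMDM and none lower (8.78% and 7.5% of all genes), and 5 were higher and 1 lower in mTAMs (11.5% and 14.4%).

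**Figure D4:**
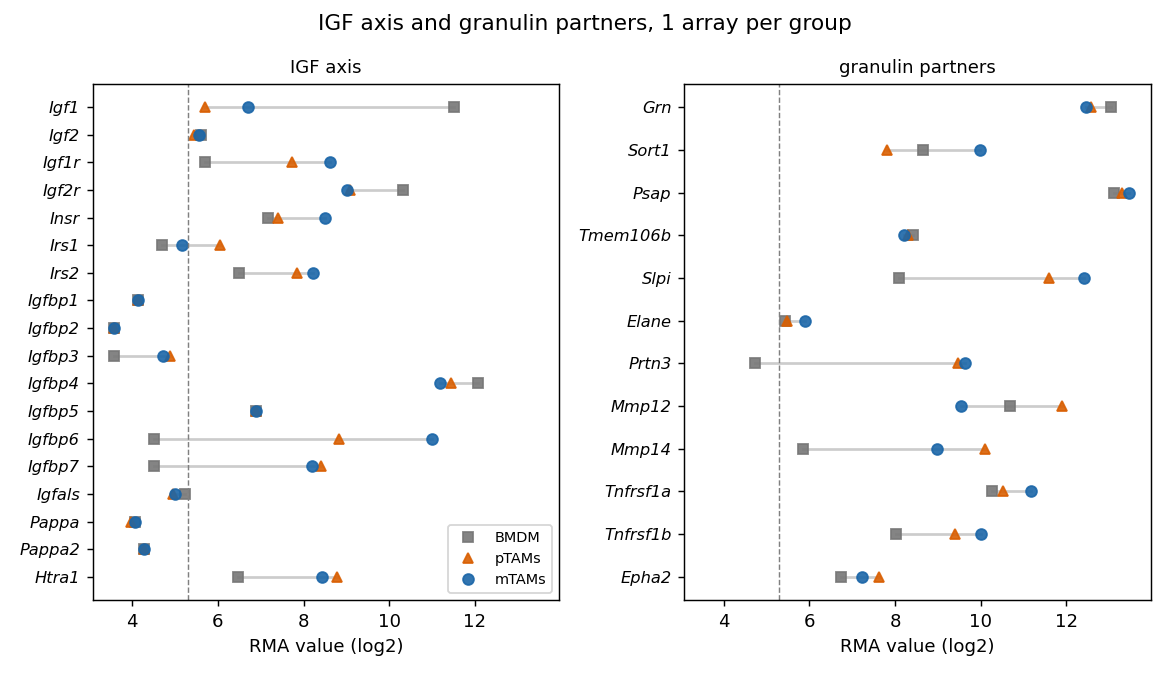
RMA values (horizontal axis, log2) of genes of the IGF axis and of progranulin handling on the BMDM (grey squares), pTAM (orange triangles) and mTAM (blue circles) arrays, 1 array per group, with the floor of 5.3 dashed and a grey bar over the range of the 3 values of a gene. *Igf1* runs from 11.51 in BMDM to 5.70 in pTAMs, *Igfbp6* from 4.52 in BMDM to 11.01 in mTAMs, and *Grn* and *Psap* stay within 1 log2 unit. Levels of different genes cannot be compared.

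Markers of other cells and of tissue handling moved with several of these differences, and their part in them was not tested. For the counts in this and the next paragraph, 8.78% of all genes were higher and 7.5% lower in pTAMs than in BMDM. In mTAMs the shares were 11.5% and 14.4%. Between the TAM arrays, 5.36% of all genes were higher in mTAMs and 2.58% lower. Neutrophil markers, like *Ereg*, were highest in mTAMs. Of 8 on the array all were higher than in BMDM in both TAM groups and 6 were higher in mTAMs than in pTAMs, with summed linear signals of 1096, 31729 and 67497 for BMDM, pTAMs and mTAMs and with *Cxcr2* and *Lcn2* below the floor in BMDM. Mast cell or basophil markers had a sum of 265, 1199 and 6248, carried in mTAMs mainly by *Hdc* (6.20, 9.99 and 12.40). All 5 compared were higher in mTAMs than in pTAMs, but *Fcer1a*, *Cma1* and *Tpsb2* stayed at or below the floor in mTAMs. Alveolar macrophage markers had a sum of 435, 2868 and 15615 (7 of 7 higher in mTAMs than in pTAMs), carried in mTAMs mainly by *Chil3* (5.02, 11.20 and 13.50). Fibroblast markers had a sum of 1438, 1395 and 4790, of which *Pdpn* (10.26, 9.30 and 8.42) made up most in BMDM. Of 6 compared, 4 were higher than in BMDM in each TAM group, among them *Col3a1* (at least 7.21-fold and at least 55.3-fold), while *Lum* and *Postn* were at or below the floor on all arrays. Lung epithelium markers had a sum of 783, 739 and 5667, carried in mTAMs by *Scgb1a1* (4.12, 4.21 and 12.17), and 2 of 7 compared were higher in mTAMs than in pTAMs.

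The summed signal of epithelial or carcinoma markers, like *Hbegf*, was highest in pTAMs (295, 4459 and 2353). *Epcam*, in this list, was 6.38, 6.53 and 6.53 and thus within 2-fold on all arrays. Of 8 compared, 7 were higher in pTAMs than in BMDM, among them *Krt18* (at least 22.2-fold), and 3 were lower in mTAMs than in pTAMs, while *Krt14* and *Esrp1* were at or below the floor on all arrays. Endothelial markers had a sum of 349, 420 and 285. Of 4 compared, 1, *Pecam1* (3.92, 7.61 and 5.96), was higher than in BMDM in each TAM group. *Vwf* (6.87, 5.94 and 5.78) was lower in mTAMs than in BMDM, and *Kdr* (7.08, 6.33 and 6.42) and *Cdh5* (5.44 on all arrays) were within 2-fold. *Tek* and *Cldn5* were below the floor throughout. Markers of lymphocytes or innate lymphoid cells had a sum of 1477, 1475 and 1076, carried by *Il7r* (10.19, 10.08 and 8.82). In the same list, *Cd3d* was 5.46-fold higher in mTAMs than in BMDM, and *Gata3* was at least 2.20-fold and at least 1.46-fold higher in pTAMs and mTAMs. *Cd3e* (6.49, 6.52 and 6.57), *Cd4* (6.19 on all arrays) and *Nkg7* (5.44, 5.71 and 5.85) were within 2-fold, and *Cd79a* was below the floor on all arrays. Growth factors and tissue digestion can both induce genes of the immediate early and heat shock response. Of these, 15 of 15 were higher than in BMDM in pTAMs (8.78% of all genes) and 14 of 15 in mTAMs (11.5%). Their medians were 3.42 and 4.92. A second probe set of *Jun* gave -0.16 and 0.10, and one of *Egr3* was 6.13 on all arrays. *Hspa1a* was at least 115-fold and at least 156-fold, and *Egr1* 36.5-fold and 107-fold, higher than in BMDM.  The macrophage markers had medians of -0.06 in pTAMs and -0.29 in mTAMs against BMDM. Of 8 compared, 3 were higher and 1 lower in pTAMs, and 2 were higher and 1 lower in mTAMs. The lower one was *Adgre1*, which encodes F4/80 (3.81-fold and 3.66-fold). *Itgam*, which encodes CD11b, was 2.71-fold and 2.22-fold higher, and *Fcgr1* was 2.17-fold higher in pTAMs.

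To describe the pattern of each gene over the 3 arrays, the genes with the smallest Euclidean distance between their values, each centered on its own mean, were sought among 11511 genes above the floor on at least 1 array, predicted genes left out. With 3 points, such likeness is easily met and describes these arrays alone. For *Ereg* they were *St3gal4* (distance 0.024, values 7.40, 8.07 and 9.89), *Il12a* (0.106) and *Gem* (0.110). The distances of *Ereg* use its values below the floor in BMDM and pTAMs, where *Il12a* and *Gem* were below it as well, so this likeness rests on background values. For *Hbegf* they were *Ccdc102a* (0.107), *Klrk1* (0.112) and *Tifab* (0.126), and for *Igf1r* they were *Tmem268* (0.064), *Tlr1* (0.083) and *Gadd45g* (0.099). *Igf1* had no such close companion. The nearest were *Gask1b* (0.540), *Afp* (0.809) and *Npy* (1.113), for which values of the TAM arrays lay below or close to the floor.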

How the data were processed

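RNA of BMDM, pTAMs and mTAMs was hybridized to Affymetrix mouse arrays, with 1 array per group. The authors deposited log2 values made with RMA, that is background-corrected, quantile-normalized and summarized per probe set, with no version found in the sources. No signal intensities were used. The precision is limited by having 1 array per group.

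Gene names came from the platform annotation (34945 with 1 symbol, 932 with several, 9160 with none), and those with 1 symbol were used. The floor, 5.3, was the 95th percentile of 84 probe sets of olfactory, trace amine, vomeronasal and bitter taste receptors. Genes above it on 1 of 2 arrays were compared and called at a log2 difference of 1, without a test. The 16 gene lists and the rule for named genes (all members, up to 4 genes per list, direction and comparison, up to 3 markers per cell type, and the 3 nearest patterns) were chosen with earlier results of these data known. Genes within 2-fold on all arrays, *Pdpn* and *Jun* were named after their values were seen. The procedure was tested on simulated data. Alternatives were 3 scalings, 2 choices of probe sets, 3 treatments of the floor and a 3-fold threshold. Tools were Python 3.11.15, numpy 2.4.6, pandas 2.3.3, matplotlib 3.10.9, R 4.3.3 and limma 3.58.1.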

Additional observations from a re-analysis of the deposited data

How the results depend on the processing

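Counts of called genes under other settings were within 1.5 times the reported count in 26 cases, with 1 exception. This was the 3-fold threshold in mTAMs against pTAMs, which left 1 call (*Ereg*) of 3. In mTAMs against BMDM that threshold left 3 of 4, without *Hbegf*. Over all genes it called 637 higher and 378 lower for pTAMs against BMDM, 862 and 575 for mTAMs against BMDM, and 294 and 58 for mTAMs against pTAMs, where the 2-fold threshold gave 633 and 304. For the 6 genes above the floor (*Ereg*, *Hbegf*, *Tgfa*, *Igf1*, *Igf1r* and *Grn*), no called difference changed sign under the 9 settings. Only the 3 scalings and the mean of all probe sets could have changed one. The floor treatments and the 3-fold threshold cannot reverse a difference, and leaving out shared probe sets kept the probe sets read for these genes. The other named genes were not run under them. With the mean of all probe sets, *Hbegf* differed from BMDM by 3.21 in pTAMs and 1.85 in mTAMs, and with values raised to the floor *Ereg* in mTAMs exceeded either array by 1.55. No paired analysis was possible because each group had 1 array. Genes near the floor, *Tgfa*, *Ereg* and *Epgn* above all, are limited by signal over background.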
